A study of Mus musculus with 12 samples.

Results

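Oocytes that had lost Dpagt1 and oocytes that carried a single amino acid change in DPAGT1 were compared directly with each other. The comparison asks how far oocytes whose own gene is deleted resemble oocytes of females in which the somatic cells are affected too. The oocyte-specific knockout females (GcKO, genotype Dpagt1F/F Gdf9CRE/+) deleted a floxed Dpagt1 allele in the oocyte alone, through a Cre recombinase driven by the Gdf9 promoter, which acts from the primordial follicle onwards. The mutant females (MUT) carried D166G, a recessive change induced by the mutagen ENU, in every cell of the body. All females were labelled C57BL/6 (C57BL/6J in the study's methods) and were 3 weeks old, and received 5 IU of PMSG, a gonadotropin that stimulates follicle growth, 46 h before collection. Each of the 3 GcKO and 3 MUT libraries was made from 20 oocytes at the germinal vesicle (GV) stage, before meiosis resumes. The labels number the libraries 1 to 3 in both groups and do not tie a library to an animal, so the spread between them may be partly technical.

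The comparison took every gene that reached 1 FPKM in any of these 6 libraries, FPKM being sequenced fragments scaled to transcript length and to the depth of the library. This rule kept 10371 of the 24255 genes listed. Of the 10371, 6679 reached 1 FPKM in all 6 libraries, 737 did so in GcKO libraries alone and 747 in MUT libraries alone. The 2 genes just inside the limit were Ccdc126 and Cdh17, with highest values of 1.00065 and 1.00113 FPKM, and the 2 just outside were Uxs1 and Gm13119, at 0.999988 and 0.999792 FPKM. A further 6 libraries, 3 from WT females and 3 from females with a granulosa cell-specific knockout (AmcKO, Dpagt1F/F Amhr2CRE/+), entered the same model. They share its estimate of the spread, serve below to place values, and were compared with each other beside the transcripts of chromosome 9. The labels thus give the floxed allele for GcKO and AmcKO and name none for MUT and WT, without a full genotype for WT. No library labelled as floxed without Cre, or as Cre without the floxed allele, was analysed here.

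DPAGT1 transfers the first sugar phosphate onto dolichol phosphate, the membrane lipid on which the precursor of all N-glycans is built before an oligosaccharyltransferase moves it onto asparagine residues of proteins entering the endoplasmic reticulum (ER). In the oocyte, the proteins of the zona pellucida and several secreted growth factors are N-glycosylated. When unfolded proteins collect in the ER, or when amino acids run short, kinases that phosphorylate the initiation factor eIF2α let the transcription factor ATF4 be translated, and ATF4 in turn activates genes for amino acid synthesis, amino acid transport and secreted stress hormones.

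The altered base of the D166G allele lies in Dpagt1 on the forward strand of chromosome 9, which runs from 44326019 to 44333900 in GRCm38 (GENCODE M21). It is at position 44328161, in exon 3 of 9 coding exons. With coding bases numbered from 1 at the A of the start codon, the substitution A497G turns codon 166 of 410 from GAC into GGC. The 33 coding bases from 481 to 513 of the reference are shown with this codon in capitals, because it is the change by which MUT females are defined.

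Dpagt1 codon 166: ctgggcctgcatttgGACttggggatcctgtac

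Dpagt1 itself was listed at 0 or at low values. GcKO libraries listed Dpagt1 at 0, 0.366 and 0 FPKM, and MUT libraries at 0.878, 0.408 and 0.985 FPKM. The MUT values all lay above the GcKO values, by little for MUT replicate 2, and the exact permutation test (two-sided, n = 3 against 3) gave p = 0.1, the smallest p this design allows. Dpagt1 stayed below 1 FPKM in all 6 libraries and so was not among the 10371. WT and AmcKO libraries listed it at 0 throughout, and a listed 0 can be a failed estimate, so these values check neither the deletion nor the level of the transcript.

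The GcKO and MUT groups overlapped in depth, with more spread in GcKO. Their FPKM values summed to 482314, 612604 and 684212 in GcKO and to 611154, 611597 and 589617 in MUT (exact permutation test, two-sided, p = 1), and GcKO replicate 1 had the lowest sum. Genes above 0 numbered 11551, 11608 and 10733 in GcKO and 11390, 11467 and 11208 in MUT (exact p = 1). FPKM values hold no counts, but the smallest steps between low values put the weight of 1 fragment at 0.966, 0.901 and 1.5 in GcKO and at 1.08, 1 and 1.21 in MUT, relative to MUT replicate 2. The sums divided by these weights gave relative depths of 0.816, 1.11 and 0.746 in GcKO and of 0.926, 1 and 0.797 in MUT. GcKO replicate 3 thus had the coarsest low values, and the 3 WT libraries were coarser still, at 2.35, 2.67 and 2.28. The FPKM sums of WT (1226005, 1167362 and 1225803) and AmcKO (967002, 1107925 and 883256) lay above those of all 6 libraries compared, and these groups are numbered 4 to 6 in the labels. Where a value is placed by WT or AmcKO, this difference between the sets of libraries cannot be told apart from genotype. On log2(FPKM + 1) over the 10371 genes, Pearson's r between libraries was 0.949 to 0.961 within GcKO, 0.960 to 0.965 within MUT and 0.945 to 0.961 across the groups, as a description over genes that share these libraries.

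The libraries held oocyte transcripts. Of 14 oocyte markers, 13 passed 1 FPKM, among them Dppa3 at 9872 ± 1966 FPKM (SD, n = 3) in GcKO and 8421 ± 431 FPKM in MUT, and Gdf9, the growth factor whose promoter drove Cre, at 2316 ± 594 and 2103 ± 720 FPKM. Sohlh1 was at 0 in all 6. Summed over the list, the markers stood at 18012, 23464 and 25298 FPKM in GcKO and at 20389, 21803 and 20790 FPKM in MUT (exact permutation p = 0.6). The groups overlapped in this sum. The receptor gene Kit had the largest difference without overlap, at 24.8 ± 6.73 and 14.99 ± 1.93 FPKM (limma adjusted p = 0.430).

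Markers of other ovarian cells were low. Of 18 granulosa and cumulus cell markers, 6 passed 1 FPKM and 8 were at 0 in all 6 libraries, among them the defining Amh, Amhr2 and Foxl2. Their sum was 14.8, 16.8 and 29.2 FPKM in GcKO and 20.02, 15.5 and 27.02 FPKM in MUT (exact permutation p = 0.9), and the aromatase gene Cyp19a1 was the most abundant, at 12.7 ± 7.33 and 10.6 ± 2.45 FPKM (SD, n = 3). Single members went either way. The inhibin subunit gene Inha was at 1.08, 0.505 and 0.842 FPKM in GcKO and 5.44, 1.13 and 5.44 FPKM in MUT without overlap. Inha and Hsd17b1 were lower at an unadjusted p under 0.05, whereas Fshr and Kitl lay higher in all GcKO libraries. Hsd17b1 passed the limit of 1 FPKM through MUT alone, and Fshr and Kitl through GcKO alone, so their directions support nothing. Of the 3 that passed in both groups, 1 (Inha) was lower without overlap and none higher, beside 7.32% and 6.71% of all transcripts. The stroma and endothelium list was the 1 list of this kind whose sums did not overlap, at 7.27, 7.96 and 4.33 FPKM in GcKO and 3.36, 3.08 and 3.50 FPKM in MUT (exact permutation p = 0.1), with Col1a1, Col3a1 and Cdh5 at 0 and Pecam1, which oocytes can also express, the most abundant, and Dcn at 1.42 ± 1.16 and 0.303 ± 0.263 FPKM. No theca marker and 1 of 8 blood and immune markers (Cd68) reached 1 FPKM. In such pooled libraries, fewer cells of a type and less RNA per cell cannot be told apart, and the part of these traces in the results was not tested.

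The GcKO and MUT transcriptomes differed in few transcripts. With limma on log2(FPKM + 1), 23 of 10371 transcripts, or 0.222%, passed a Benjamini-Hochberg adjusted p under 0.05, of which 15 (0.145%) were lower and 8 (0.0771%) were higher in GcKO. The 3 GcKO and 3 MUT values overlapped for none of the 23. With each library scaled to the same sum the split was 36 lower and 40 higher, and with quantile normalization 32 lower and 28 higher. Leaving out 1 library gave 10 to 31 calls, a block for the replicate number over all 12 libraries 9 and sample quality weights 104. At an unadjusted p under 0.05 there were 740 transcripts (7.14%), 402 lower (3.88%) and 338 higher (3.26%). Groups that did not overlap were found for 1455 transcripts (14%), 759 with all GcKO values lower (7.32%) and 696 with all GcKO values higher (6.71%). The median log2 fold change was -0.01, and 357 transcripts (3.44%) differed by more than 2-fold in either direction.

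**Figure D1:**
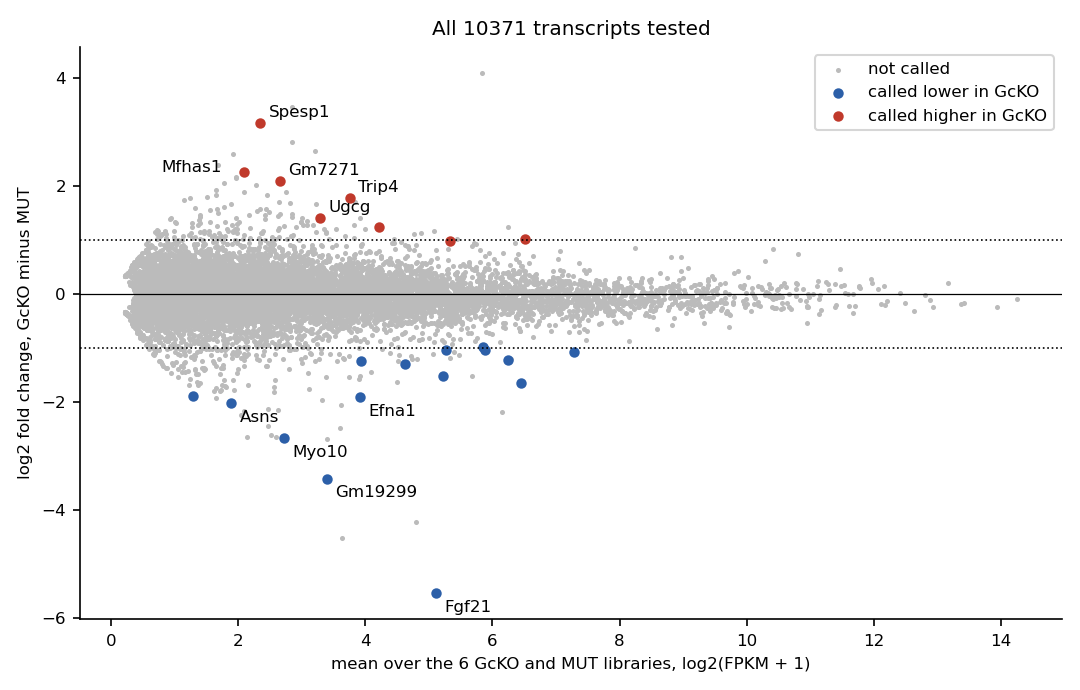
Log2 fold change (GcKO minus MUT) of each of the 10371 transcripts against its mean level over the 6 libraries, on log2(FPKM + 1). Coloured points are the 15 transcripts called lower and the 8 called higher, dotted lines mark 2-fold, and the points narrow towards 0 at high levels.

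The lack of a call bounds a difference only where the spread was small. The 95% interval of the log2 fold change lay within 2-fold in both directions for 5510 transcripts (53.1%), or for 3412 with a pseudocount of 0.1. At low levels the added 1 shrinks differences, so there such an interval bounds the log2(FPKM + 1) scale and not the fold in FPKM. This share rose with the level, from 29.4% of the 1831 transcripts with a mean under 1 FPKM to 41.1% between 1 and 10, 79.7% between 10 and 100 and 96.7% of the 782 transcripts above 100 FPKM. Among those above 100 FPKM, 1 was called, Xlr3b. For transcripts of low abundance, a difference of 2-fold was often not detectable in this comparison. The 10 most abundant transcripts, led by Gm15698, Obox2 and Ubb, all had overlapping groups (Obox1, Dppa3, Tcl1, Mphosph6, Obox5, Bcl2l10 and Omt2a being the rest), with log2 fold changes between -0.31 (Bcl2l10) and 0.21 (Dppa3).

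Fgf21, Nupr1 and Asns, all targets of ATF4, were among the 15 lower transcripts. Fgf21 (chr7:45613886-45615490, GENCODE M21) encodes a secreted hormone of the fasting and stress response. It was at 1.89, 0 and 0 FPKM in GcKO and at 73.6, 49.3 and 77.2 FPKM in MUT, and was listed at 0 in all WT and AmcKO libraries. Abundant Fgf21 thus set the 3 MUT libraries apart from the other 9. The log2 fold change was -5.54 (standard error 0.39, limma adjusted p = 1.46e-05).

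Asns (chr6:7675169-7693254) encodes asparagine synthetase, and asparagine is the residue to which N-glycans are joined. Its transcript was at 0.771, 0.722 and 0 FPKM in GcKO and at 3.89, 6.02 and 4.85 FPKM in MUT (log2 fold change -2.01, standard error 0.32, limma adjusted p = 0.0175). Nupr1 (chr7:126623249-126630861), a small stress-induced chromatin protein, was listed at 0 in all GcKO libraries and at 2.04, 1.97 and 4.67 FPKM in MUT (limma adjusted p = 0.0147). No fold is given for a transcript listed at 0 throughout one group, since its fitted value is set by the pseudocount. Both followed the pattern of Fgf21, with WT at 0 and AmcKO at 0 or, for Asns in AmcKO replicate 4, at 0.601 FPKM. The values of all 3 are thus low everywhere except in MUT, and for Asns and Nupr1 the MUT values too are a few FPKM. Without GcKO replicate 3 the limma adjusted p was 0.0551 for Asns and 0.0506 for Nupr1, and that of Asns was 0.0542 without MUT replicate 2 and 0.0522 without MUT replicate 3. With a pseudocount of 0.1 it was 0.296 for Asns, and with the 6 GcKO and MUT libraries alone 0.0708 for Nupr1.

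ATF4, together with a C/EBP partner, is known to bind a composite element whose core is TGATGNAA. The 150 bases before the RefSeq transcription start (GRCm38.p6, all on the reverse strand, printed 5′ to 3′) are shown for these 3 genes because all hold this core, given in capitals. Fgf21 is from chr7:45615491-45615640, Asns from chr6:7693210-7693359 and Nupr1 from chr7:126625471-126625620.

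Fgf21: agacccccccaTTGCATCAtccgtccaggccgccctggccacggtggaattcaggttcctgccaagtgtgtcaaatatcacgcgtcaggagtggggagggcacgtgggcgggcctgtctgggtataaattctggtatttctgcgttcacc

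Asns: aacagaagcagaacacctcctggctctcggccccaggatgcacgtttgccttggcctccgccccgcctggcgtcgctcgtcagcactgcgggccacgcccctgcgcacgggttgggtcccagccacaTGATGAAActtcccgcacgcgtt

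Nupr1: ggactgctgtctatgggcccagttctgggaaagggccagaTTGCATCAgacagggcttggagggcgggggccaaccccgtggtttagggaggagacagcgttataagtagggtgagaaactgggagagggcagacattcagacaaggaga

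The core begins 139 bases before the RefSeq start in Fgf21 and 110 in Nupr1, on the opposite strand in both, and 23 bases before it in Asns. Searched on both strands of the windows from 250 bases before to 50 bases after the start, TGATGNAA was found in 1304 of 32851 windows (3.97%) and for 255 of the 7895 tested genes with a window (3.23%). It was found for 3 of the 19 called transcripts with a window (15.8%), namely these 3, and for 9 of 26 ATF4 targets with a window (34.6%). Asns and Nupr1 passed the limit of 1 FPKM through MUT alone, and the targets were listed with earlier results known. These shares thus describe the genes and support nothing. A match describes the letters and does not show a bound site.

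The wider list of ATF4 targets held 33 genes, of which 27 passed the limit of 1 FPKM and 6, Atf5, Trib3, Slc7a3, Sesn2, Vldlr and Pycr1, did not. Of the 27, 3 were called lower and none higher, against 0.145% and 0.0771% of all transcripts. At an unadjusted p under 0.05, 12 were lower (3.88% of all transcripts) and none higher. The groups did not overlap for 16, all of them lower in GcKO (7.32% of all transcripts), and 23 of the 27 log2 fold changes were negative. The median of the list on the log2 scale was -0.53, beside -0.01 for all transcripts, and -0.89 with a pseudocount of 0.1 or -0.86 over members with a mean of at least 5 FPKM. Of the 27, 6 (Nupr1, Asns, Psat1, Chac1, Slc7a5 and Stc2) reached 1 FPKM in MUT alone and were kept by their MUT values, so these counts and the median describe the list and support nothing. Of the 20 that reached 1 FPKM in both groups, 1 (Fgf21) was called lower, 8 were lower and none higher at an unadjusted p under 0.05, 11 were lower and none higher without overlap, and the median was -0.43. The list was assembled with earlier results of these data known.

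**Figure D2:**
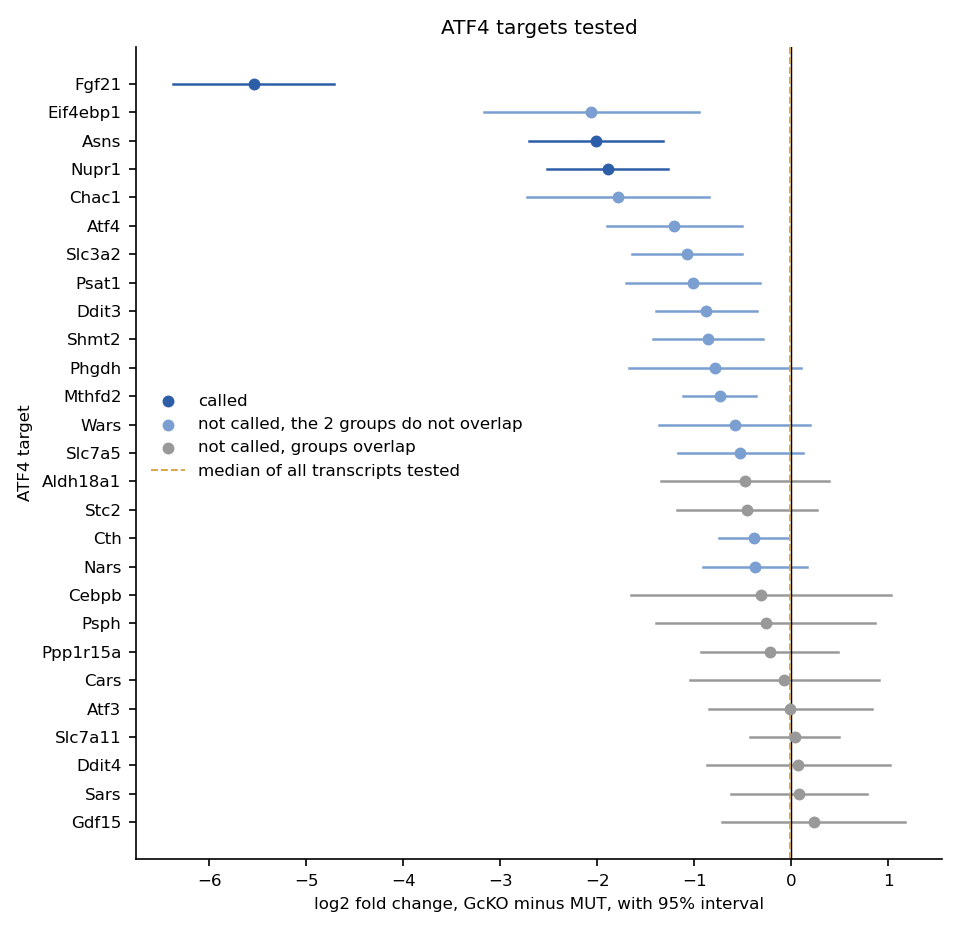
Log2 fold change (GcKO minus MUT) of the 27 ATF4 targets tested, with 95% intervals from the limma fit. Dark points are the 3 called transcripts, lighter blue points are uncalled transcripts whose 3 GcKO and 3 MUT values do not overlap, and grey points overlap. Fgf21 stands at -5.54 and the highest point is Gdf15 at 0.23.

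Of the regulators on the list, Atf4 and Ddit3 were abundant. Atf4 was at 72.5, 45.5 and 28.1 FPKM in GcKO and at 96.2, 102 and 122 FPKM in MUT (log2 fold change -1.21, limma adjusted p = 0.220), and Ddit3, which encodes the factor CHOP, at 145, 202 and 258 FPKM and at 382, 387 and 319 FPKM (-0.88, limma adjusted p = 0.245). Neither overlapped between the groups and neither was called. As deposited, Atf4 was at 15.9, 33.0 and 20.5 FPKM in WT, near or below the GcKO values. Ddit3 was at 316, 353 and 501 FPKM in WT, near the MUT values. However, the FPKM sums of the WT libraries lay above those of GcKO and MUT. Relative to these sums, Ddit3 in WT lay near GcKO and below MUT, so its place beside MUT depends on the scaling.

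Among the enzymes of serine and one-carbon metabolism, Mthfd2 was at 46.6 ± 5.61 FPKM (SD, n = 3) in GcKO and 78.6 ± 9.93 FPKM in MUT, Shmt2 at 8.49 ± 0.89 and 16.2 ± 1.68 FPKM, and Psat1 was listed at 0 in GcKO and at up to 2.54 FPKM in MUT. The groups did not overlap for these 3 or for Phgdh, and none was called. Of the amino acid transporters, Slc3a2, the heavy chain shared by several of them, was at 26.5 ± 7.82 and 55.7 ± 8.83 FPKM (log2 fold change -1.08, limma adjusted p = 0.153). Its partner Slc7a11, the cystine transporter, was at 23.7 ± 5.96 and 22.8 ± 1.72 FPKM, with overlapping groups and an interval of the log2 difference from -0.43 to 0.49.

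Further members without overlap were Eif4ebp1, a repressor of cap-dependent translation, at 3.74 ± 0.89 and 18.9 ± 4.53 FPKM (-2.06, limma adjusted p = 0.160), and Chac1, which degrades glutathione, at 0.483 ± 0.494 and 4.19 ± 2.01 FPKM (-1.79, limma adjusted p = 0.153). The stress hormone Gdf15 and the factor Atf3 had overlapping groups, at log2 fold changes of 0.23 and -0.01. Summed over the 33 genes, GcKO stood at 418, 419 and 470 FPKM and MUT at 833, 862 and 822 FPKM (exact permutation p = 0.1, the smallest possible). As deposited, WT stood between them in this sum, at 530, 554 and 713 FPKM. Relative to the larger FPKM sums of the WT libraries over all genes, the WT level lay below both groups. Without Ddit3, the most abundant member, the sums were 273, 217 and 211 FPKM in GcKO, 452, 474 and 503 FPKM in MUT and 214, 201 and 212 FPKM in WT. The WT mean of log2(FPKM + 1) lay nearer to GcKO than to MUT for 20 of the 27 transcripts (74.1%, beside 50.2% of all transcripts), and for 22 (81.5%, beside 48.1%) with each library scaled to the same sum. The 27 include the 6 that passed the limit of 1 FPKM through MUT alone, so these shares describe the list and support nothing.

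The ER chaperones held no call. Of 30 ER chaperone and unfolded protein response genes tested, 2 were lower and none higher at an unadjusted p under 0.05 (3.88% and 3.26% of all transcripts), and the median difference was -0.06 on the log2 scale. Their summed FPKM was 589, 606 and 647 in GcKO and 778, 762 and 723 in MUT (exact permutation p = 0.1), without overlap. The lumenal chaperone Hspa5 (BiP) was at 41.2, 36.8 and 38.3 FPKM in GcKO and at 31.7, 46.1 and 34.8 FPKM in MUT, with an interval of the log2 difference from -0.36 to 0.48. The groups overlapped, as they did for Hsp90b1 and Calr. Of the 30, 5 were lower and 1 higher without overlap, against 7.32% and 6.71% of all transcripts, and 21 had intervals within 2-fold. Of the 2 lower at an unadjusted p under 0.05, one was Manf, a secreted ER stress factor, at 124, 138 and 149 FPKM in GcKO and 253, 205 and 202 FPKM in MUT (log2 fold change -0.68, limma adjusted p = 0.0796). The other was Herpud1, which assists ER-associated degradation and was listed at 0 in GcKO and at 1.35, 0.83 and 2.01 FPKM in MUT (limma adjusted p = 0.0802), and so passed the limit of 1 FPKM through MUT alone.

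Of the 23 called transcripts, 6 lay on chromosome 9, the chromosome of Dpagt1, which holds 591 of the transcripts tested. That was 1.02% of them, against 0.222% of all. They stood between 2.07 Mb before and 42.2 Mb after Dpagt1, 4 lower (Sc5d, Tex12, Rwdd2a and the long noncoding RNA Gm19299) and 2 higher in GcKO (Spesp1 and Trip4). Within 20 Mb of Dpagt1, 15.8% of the 57 transcripts before it and 15.1% of the 126 after it had an unadjusted p under 0.05, as did 6.98% of those farther before it, 8.13% of those 20 to 45 Mb after it, 4.02% of the 199 more than 45 Mb after it and 7.14% of all transcripts. Over the whole of chromosome 9 the share was 8.80%, and on chromosome X it was 9.81%. Of 518 listed genes within 20 Mb, 183 were tested, 2 of which were called lower and 1 (Spesp1) higher. Of the 183, 17 reached 1 FPKM in MUT alone and 10, Spesp1 among them, in GcKO alone. The shares within 20 Mb thus describe the region and support nothing. Over the 156 that reached 1 FPKM in both groups, 2 were called lower, and 16 were lower and 6 higher at an unadjusted p under 0.05.

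Spesp1 (chr9:62270729-62282208) encodes a protein of the sperm equatorial segment that acts in fusion with the egg. Its transcript was at 8.66, 10.1 and 5.83 FPKM in GcKO and was listed at 0 in all MUT libraries (limma adjusted p = 0.000336). It was also at 0 in all WT libraries, and at 10.2, 8.59 and 15.9 FPKM in AmcKO. Spesp1 was thus present in both groups labelled with the floxed allele and listed at 0 in the other two.

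Gm19299 (67133560 to 67213918) showed the reverse, at 0, 1.03 and 1.72 FPKM in GcKO and 19.2, 14.4 and 20.9 FPKM in MUT, with WT at 13.4, 12.1 and 19.5 FPKM and AmcKO at 0 (log2 fold change -3.42, standard error 0.35, limma adjusted p = 0.000616). Trip4, a transcriptional coactivator subunit, was at 24.04, 17.2 and 18.8 FPKM in GcKO and 4.93, 4.10 and 6.31 FPKM in MUT (1.79, standard error 0.26, limma adjusted p = 0.0102), with WT at 2.08 to 3.31 FPKM and AmcKO at 14.98 to 25.7 FPKM. For both, GcKO sided with AmcKO and MUT with WT. Trip4 overlaps 2810417H13Rik on the other strand, which stayed at or below 2.04 FPKM, and use of strand in counting is not given in the sources used here. Without GcKO replicate 3 or MUT replicate 1 the limma adjusted p of Trip4 was 0.0509 and 0.0584.

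Sc5d, the sterol desaturase of the last steps of cholesterol synthesis, was at 29.8, 40.3 and 44.4 FPKM in GcKO and 88.7, 68.7 and 77.8 FPKM in MUT (log2 fold change -1.03, limma adjusted p = 0.0400). Tex12, a component of the synaptonemal complex, was at 44.0, 40.3 and 49.8 FPKM and at 112, 111 and 92.9 FPKM (-1.22, limma adjusted p = 0.0373), and Rwdd2a at 9.77, 15.1 and 15.3 FPKM and at 40.8, 31.6 and 29.2 FPKM (-1.29, limma adjusted p = 0.0359). The calls of Sc5d and Rwdd2a were lost in 10 of the 12 fits that left out 1 library, and that of Tex12 in 8, with limma adjusted p of up to 0.195, 0.188 and 0.199.

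AmcKO and WT share no library with GcKO and MUT, so their difference was set beside these 6. AmcKO minus WT had the same sign as GcKO minus MUT for 6 of 6, for 10 of the 17 called elsewhere and for 49.5% of all transcripts tested. The 6 were not alike in this. By mean log2(FPKM + 1), AmcKO lay nearer to GcKO for Spesp1, Gm19299 and Trip4. Sc5d in AmcKO (56.5, 63.4 and 46.1 FPKM, WT 148, 122 and 123 FPKM) lay about midway, slightly nearer to MUT on the log2 scale and nearer to GcKO in FPKM. AmcKO lay nearer to MUT for Tex12 (AmcKO 129, 113 and 67.9 FPKM, WT 156, 206 and 153 FPKM) and Rwdd2a (28.5, 36.4 and 21.4 FPKM, WT 34.0, 32.6 and 34.4 FPKM). The difference between AmcKO and WT was not called for Tex12 (limma adjusted p = 0.141) or Rwdd2a (0.624). Between AmcKO and WT, 21 transcripts were called (0.202%), 8 of them on chromosome 9. Spesp1, Gm19299, Trip4 and Sc5d were called in both comparisons with the same sign, and elsewhere in the genome this held for 1 of 17, Myo10. These 5 were 21.7% of the transcripts called between GcKO and MUT and 23.8% of those called between AmcKO and WT. Among them, Spesp1 had passed the limit of 1 FPKM through GcKO alone and Myo10 through MUT alone. The floxed allele and what is linked to it cannot be told apart here.

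**Figure D3:**
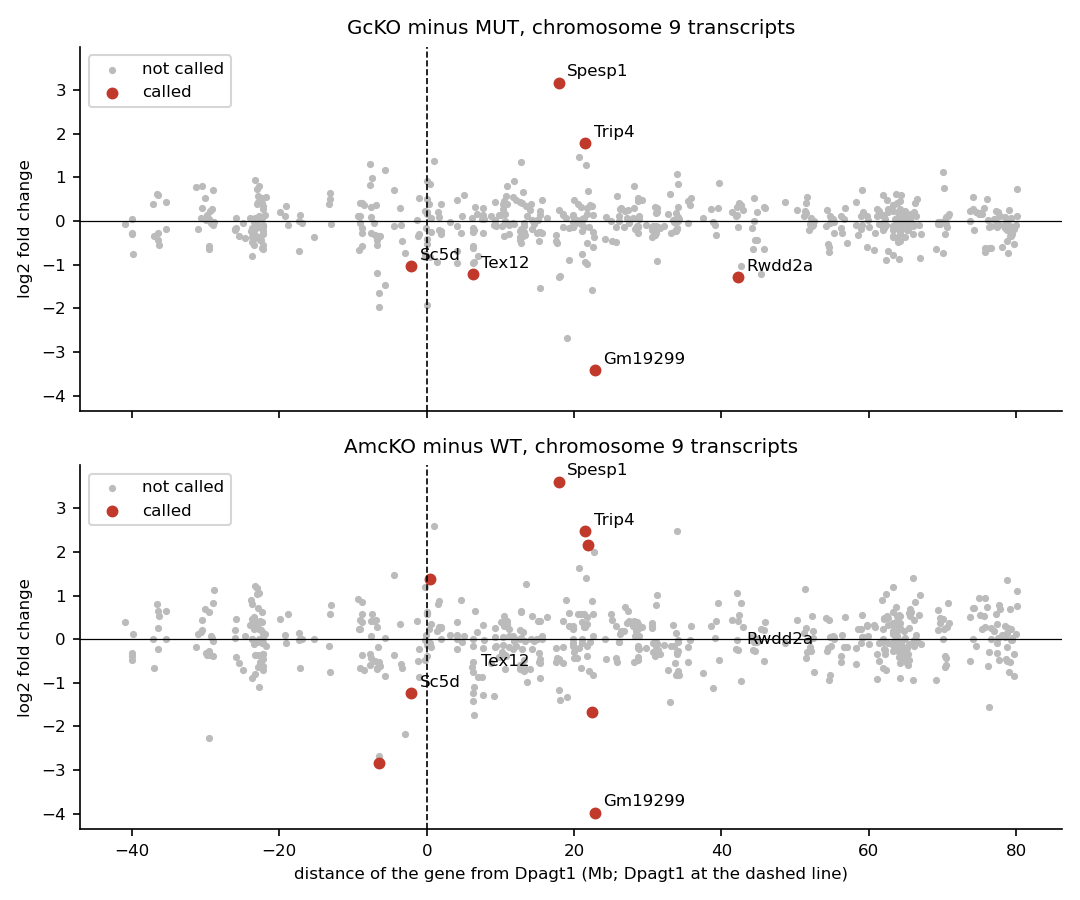
Log2 fold changes of chromosome 9 transcripts against the distance of the gene from Dpagt1 in Mb, for GcKO minus MUT (above) and AmcKO minus WT (below), with called transcripts in red and the 6 called between GcKO and MUT named in both panels. Spesp1, Trip4, Gm19299 and Sc5d are red in both panels, and no transcript beyond 45 Mb is called in the upper one.

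Myo10, on chromosome 15 (25622525 to 25813673), encodes the unconventional myosin of filopodium tips, which in follicles serves the projections that granulosa cells send to the oocyte. It was at 0.98, 0.53 and 0.89 FPKM in GcKO and 10.5, 10.9 and 9.60 FPKM in MUT (log2 fold change -2.66, standard error 0.33, limma adjusted p = 0.00320). WT was at 9.16, 14.6 and 8.32 FPKM and AmcKO at 0.25, 1.55 and 1.63 FPKM. In Myo10, as in Spesp1, Gm19299 and Trip4, GcKO lay with AmcKO and MUT with WT. Myo10 passed the limit of 1 FPKM through MUT alone, so its direction supports nothing on its own.

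Of the 17 transcripts called outside chromosome 9, WT was nearer to GcKO for 10 and nearer to MUT for 7, or for 8 and 9 with each library scaled to the same sum. As deposited, those for which MUT stood apart included, besides the ATF4 targets, Gm7271 and Ugcg. Gm7271 was at 8.20, 12.2 and 7.41 FPKM in GcKO and 1.32, 1.26 and 1.5003 FPKM in MUT (log2 fold change 2.09, limma adjusted p = 0.00427), with WT at 8.21 to 9.65 FPKM. Ugcg, the enzyme that makes glucosylceramide, the first step of most glycosphingolipids, was at 14.3, 11.8 and 13.3 FPKM in GcKO and 5.00, 3.85 and 4.19 FPKM in MUT (1.40, limma adjusted p = 0.0306), with WT at 11.8 to 14.9 FPKM and AmcKO at 11.8 to 21.5 FPKM. Low values in the 3 MUT libraries against the other 9 thus marked both. The call of Ugcg was lost in 6 of the 12 fits that left out 1 library, with limma adjusted p of up to 0.128.

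As deposited, the same order held for Commd10 and Fam107b. Commd10, a subunit of the endosomal Commander complex, was at 24.8 ± 1.58 FPKM (SD, n = 3) in GcKO, 10.3 ± 3.63 FPKM in MUT and 22.03 to 25.9 FPKM in WT. Fam107b was at 52.8 ± 7.22, 26.0 ± 3.07 and 63.6 to 82.8 FPKM. Relative to the larger FPKM sums of the WT libraries, Commd10 and Ugcg in WT lay nearer to MUT, and Fam107b about midway. Gm6083, annotated as a processed pseudogene whose reads may belong to its parent gene, was at 122 ± 15.5 and 59.0 ± 3.27 FPKM. Both were below WT as deposited, at 221 to 291 FPKM, whereas relative to the FPKM sums Gm6083 in WT lay with GcKO. In the other direction, Cmpk1, the kinase of pyrimidine monophosphates, was at 37.6 ± 6.68 FPKM in GcKO, 75.4 ± 12.8 FPKM in MUT and 37.6 to 40.6 FPKM in WT, and Krcc1 at 24.6 ± 3.35, 51.0 ± 1.32 and 29.9 to 37.8 FPKM. All 5 were called, with limma adjusted p between 0.0169 (Krcc1) and 0.0358 (Commd10 and Cmpk1). In the fits that left out 1 library, the call was lost in 10 of 12 for Commd10, 9 for Cmpk1, 7 for Fam107b, 7 for Gm6083 and 2 for Krcc1, with limma adjusted p of up to 0.135, 0.128, 0.106, 0.134 and 0.0584.

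In other called transcripts, GcKO stood apart. Mfhas1 was at 5.96, 5.27 and 6.99 FPKM in GcKO and 0.35, 0.32 and 0.79 FPKM in MUT (log2 fold change 2.26, limma adjusted p = 0.0102), with WT and AmcKO at 0 to 1.15 FPKM. Efna1, an ephrin ligand bound to the membrane by a GPI anchor, was at 5.99, 7.15 and 3.40 FPKM in GcKO and 23.2, 25.1 and 19.9 FPKM in MUT (-1.91, limma adjusted p = 0.0102), with WT at 23.1 to 25.2 FPKM and AmcKO at 11.3 to 22.8 FPKM. The GcKO libraries were thus the highest of all 12 for Mfhas1 and the lowest for Efna1. Without GcKO replicate 3 the limma adjusted p was 0.0509 for both, without MUT replicate 1 it was 0.0584 for Mfhas1 and 0.0628 for Efna1, and without MUT replicate 2 it was 0.0542 for Efna1. With a pseudocount of 0.1 the limma adjusted p of Mfhas1 was 0.180. Mfhas1 passed the limit of 1 FPKM through GcKO alone, and it shares its locus with the entry Gm16793.

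Of the X-linked Xlr3 genes, which encode a family of lymphocyte-regulated nuclear proteins, Xlr3c and Xlr3b were called lower in GcKO. Xlr3c was at 31.1, 41.0 and 53.9 FPKM in GcKO and 130, 134 and 128 FPKM in MUT (log2 fold change -1.65, limma adjusted p = 0.00160), and Xlr3b at 80.6, 95.6 and 125 FPKM and at 204, 199 and 226 FPKM (-1.07, limma adjusted p = 0.0175). Xlr3a, named here after its values were seen, was at 155, 209 and 238 FPKM and 294, 273 and 300 FPKM and was not called (-0.54, limma adjusted p = 0.294). These neighbouring genes are near-identical copies that share reads, so the split of the signal among them is uncertain. The call of Xlr3b was lost in 4 of the 12 fits without 1 library. In all 3, the GcKO libraries were the lowest of the 12.

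The same caution holds for the last called pair. Mterf1a, a mitochondrial transcription terminator with a close copy, Mterf1b, was at 7.68, 9.43 and 7.40 FPKM in GcKO and 19.3, 20.5 and 21.7 FPKM in MUT (log2 fold change -1.23, limma adjusted p = 0.0128), while Mterf1b was not called (-0.51, limma adjusted p = 0.735). Vmn1r157, of the vomeronasal receptor family, was at 11.3, 26.3 and 19.5 FPKM and at 44.2, 59.3 and 57.9 FPKM (-1.51, limma adjusted p = 0.0359). Its entry shares 1 locus with 52 other entries of the table, so the source of these reads is uncertain. Leaving out 1 library ended the call of Vmn1r157 in 9 of 12 fits, with limma adjusted p of up to 0.222, and that of Mterf1a in 1, at 0.0509.

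**Figure D4:**
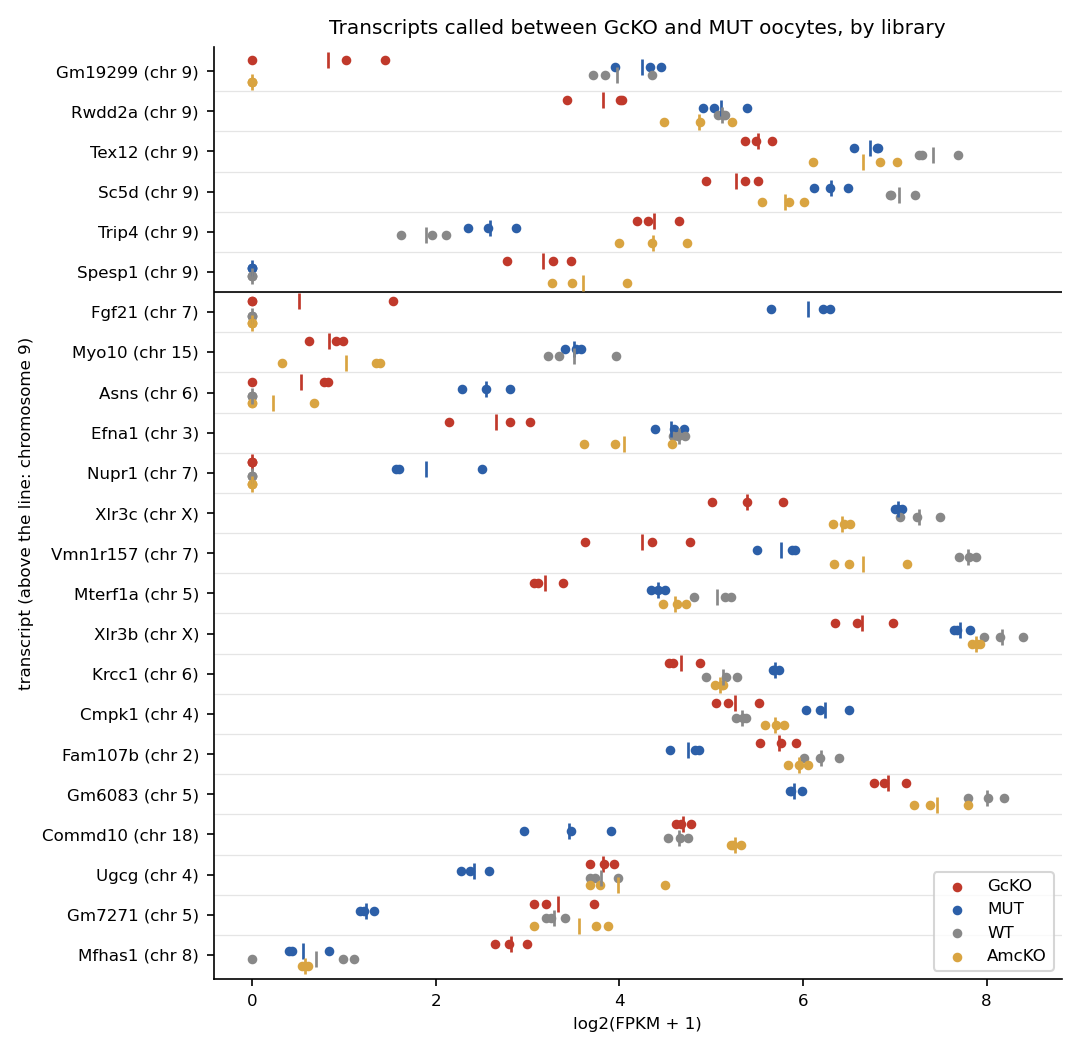
Levels of the 23 called transcripts in each of the 12 libraries on log2(FPKM + 1), points being libraries and short vertical bars group means. The 6 transcripts above the line lie on chromosome 9, where the WT means are nearer to MUT for all 6 as deposited and for 5 with each library scaled to the same sum. Fgf21, Asns and Nupr1 show high values in MUT alone.

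The genes of N-glycosylation were not among the called transcripts. Of 18 tested genes of precursor synthesis, none was called, and the median was 0.00 on the log2 scale. At an unadjusted p under 0.05, 1 was lower (Alg9) and 1 higher, beside 3.88% and 3.26% of all transcripts. The higher one was Alg13, whose product works in the step directly after DPAGT1. Alg13 was at 89.0, 93.3 and 130 FPKM in GcKO and 81.7, 70.1 and 77.7 FPKM in MUT (log2 fold change 0.42, interval from 0.07 to 0.77, limma adjusted p = 0.547). The groups did not overlap, by little for GcKO replicate 1. Its partner Alg14 was at 8.001, 7.55 and 6.30 FPKM in GcKO and 9.02, 8.52 and 8.93 FPKM in MUT, also without overlap and in the opposite direction (-0.25, interval from -1.15 to 0.65). Dpm2, a subunit of dolichol-phosphate mannose synthase and the most abundant member, had a log2 fold change of 0.06. Alg12, a mannosyltransferase, had the largest difference without overlap, at 1.65 ± 0.792 and 2.81 ± 0.270 FPKM (limma adjusted p = 0.858). Of the 18, 2 were lower and 1 higher without overlap, beside 7.32% and 6.71% of all transcripts.

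Of the 13 oligosaccharyltransferase genes, none was called and none had an unadjusted p under 0.05. The most abundant, Dad1, was at 675 ± 142 FPKM (SD, n = 3) in GcKO and 650 ± 44.2 FPKM in MUT, with an interval of the log2 difference from -0.38 to 0.45, and the catalytic subunits Stt3a and Stt3b had log2 fold changes of 0.09 and 0.16. Rpn2 alone did not overlap, at 5.50 ± 0.958 and 3.27 ± 0.649 FPKM (limma adjusted p = 0.726), beside 6.71% of all transcripts higher without overlap. The 12 genes of sugar nucleotide supply and the 14 of glycan trimming and Golgi processing held no call, with medians of 0.09 and 0.28. In the first, the most abundant member, Gnpnat1, stood at -0.35 on the log2 scale and Ugp2, which makes UDP-glucose, at 0.76 without overlap. In the second, 3 of 14 differences were negative and the summed level did not overlap, at 53.5, 52.6 and 52.6 FPKM in GcKO and 42.1, 39.8 and 50.1 FPKM in MUT (exact permutation p = 0.1). Its most abundant member was the fucosyltransferase gene Fut8 (0.28), and Fut8 and the mannosidase gene Man1a2 (0.29) were those without overlap. Both were higher in GcKO, beside 6.71% of all transcripts higher without overlap. There only 5 of 14 intervals lay within 2-fold, since most members were at a few FPKM. Among 17 GPI anchor genes, none was called, and Pigw (at 0 in GcKO, 1.09, 0.67 and 1.22 FPKM in MUT), Piga and Pigc were lower in all GcKO libraries, with adjusted p of at least 0.481 by limma. Such non-overlapping lower values made up 7.32% of all transcripts, and Pigw passed the limit of 1 FPKM through MUT alone. Pigf, the most abundant, stood at 0.02 on the log2 scale.

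Transcripts of the zona pellucida did not separate the groups. Zp1 was at 17.0, 34.7 and 31.3 FPKM in GcKO and 17.3, 24.9 and 22.3 FPKM in MUT, Zp2 at 73.6, 116 and 131 FPKM and 88.5, 91.0 and 67.2 FPKM, and Zp3 at 493, 596 and 507 FPKM and 375, 497 and 460 FPKM. Each pair of groups overlapped, and the log2 fold changes were 0.30, 0.35 and 0.27, with upper interval bounds of 0.90, 0.79 and 0.64. Differences beyond 2-fold are thus outside all 3 intervals. The 12 genes of the zona and oocyte-secreted list had a median of 0.22, and the 8 of the sperm-egg fusion and cortical granule list one of 0.29. Spesp1 was the 1 call in either, beside 0.0771% of all transcripts called higher. It reached 1 FPKM in GcKO alone, and over the 7 of its list that did so in both groups the median was 0.23. The most abundant members of these lists, Oosp1 and the sperm receptor gene Izumo1r, stood at -0.10 and 0.23 with overlapping groups. Astl, the protease that cleaves ZP2 after fertilization, was at 32.0 ± 0.81 FPKM (SD, n = 3) in GcKO and 21.3 ± 4.61 FPKM in MUT without overlap (log2 fold change 0.59, limma adjusted p = 0.582).

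Transcripts stored for the egg held no call. All 11 genes of the subcortical maternal complex list had intervals within 2-fold around a median of 0.16 on the log2 scale. Padi6 was the 1 without overlap, at 209 ± 9.85 and 155 ± 34.8 FPKM (0.45, limma adjusted p = 0.468), beside 6.71% of all transcripts higher without overlap. Zbed3, the most abundant, stood at -0.24 with overlap. Of 32 meiotic cell cycle genes, none was called or had an unadjusted p under 0.05, and 27 intervals lay within 2-fold. Pttg1 (securin) was at 456 ± 103 FPKM (SD, n = 3) in GcKO and 450 ± 36.1 FPKM in MUT (log2 difference from -0.38 to 0.38), and Esco2, a cohesin acetyltransferase, at 339 ± 47.9 and 313 ± 9.45 FPKM (-0.18 to 0.39). Birc5 (survivin), the most abundant of the list, stood at 0.00 on the log2 scale. Separase (Espl1) was at 1.83 ± 0.10 and 2.46 ± 0.08 FPKM without overlap, a log2 difference of -0.29 with an interval from -0.94 to 0.37.

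Among 18 genes of maternal chromatin and DNA methylation, 16 had intervals within 2-fold and none was called. Npm2, the histone chaperone that unpacks sperm chromatin, was at 268 ± 61.7 and 232 ± 4.94 FPKM. Kdm1b, a demethylase of histone H3 needed to set maternal imprints, differed most, at 30.7 ± 10.4 FPKM (SD, n = 3) in GcKO and 14.6 ± 0.65 FPKM in MUT, without overlap (log2 fold change 0.97, limma adjusted p = 0.144). In the lists for mRNA storage and translation (19 tested) and oocyte transcription factors (13 tested), none was called, with medians of 0.01 and -0.18, and 8 of the 13 had intervals within 2-fold. The mRNA decay factor gene Btg4 was the most abundant of the first (0.17, with overlap). Ybx2, which binds stored mRNA, was at 37.9 ± 4.74 and 28.5 ± 2.74 FPKM, and the transcription factor gene Foxo3 at 1.47 ± 0.525 and 2.94 ± 0.571 FPKM, both without overlap (limma adjusted p = 0.774 and 0.706).

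Housekeeping machinery was likewise free of calls. The medians were -0.05 for 33 proteasome subunits, -0.04 for 75 genes of oxidative phosphorylation, -0.12 for 73 cytosolic and -0.10 for 77 mitochondrial ribosomal proteins, and -0.02 for 27 genes of COPI, COPII and p24 coats. The 28 Mediator subunits had a median of -0.16 and the 10 immediate-early and heat stress genes one of 0.05. The sum of the stress genes was nevertheless lower in GcKO without overlap, at 94.0, 90.4 and 74.0 FPKM against 103, 116 and 112 FPKM (exact permutation p = 0.1, the smallest possible). Of these genes 2 were lower and none higher at an unadjusted p under 0.05 (3.88% of all transcripts were lower), the cochaperone gene Dnajb1, the most abundant, at 50.9, 50.6 and 36.1 FPKM in GcKO and 67.2, 80.0 and 79.7 FPKM in MUT, and Ier2, at 0 in GcKO and 0.577, 1.07 and 1.94 FPKM in MUT, which passed the limit of 1 FPKM through MUT alone. Their part in the ATF4 target values, which were lower in the same libraries, was not tested. The sum of the coat genes did not overlap either, at 720, 903 and 938 FPKM in GcKO and 941, 961 and 942 FPKM in MUT (exact permutation p = 0.1), though GcKO replicate 3 came close to MUT. Arcn1, a COPI subunit, was at 29.3 ± 5.81 and 52.0 ± 0.988 FPKM (limma adjusted p = 0.128). The most abundant members, Psma2, Cox8a, Rpl41, Mrpl14, Sar1b and Med21, had log2 fold changes of -0.03, -0.13, 0.01, -0.11, -0.02 and -0.18, without overlap for Mrpl14 alone. The largest differences without overlap in the other lists were those of Psmd14 (0.51), Ndufb4 (-1.23), Rpl11 (-1.20), Mrps15 (0.60) and Med22 (-0.73), with limma adjusted p of 0.633, 0.432, 0.602, 0.787 and 0.441. Rpl19 and Actb, both common references, had log2 fold changes of 0.10 and -0.57. Actb was at 131 ± 10.7 FPKM (SD, n = 3) in GcKO and 195 ± 6.45 FPKM in MUT without overlap, though it was not called (limma adjusted p = 0.128). Of the cytosolic ribosomal protein genes in the table, 8 were listed at 0 in all 6 libraries, so a listed 0 can be a failed estimate.

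**Figure D5:**
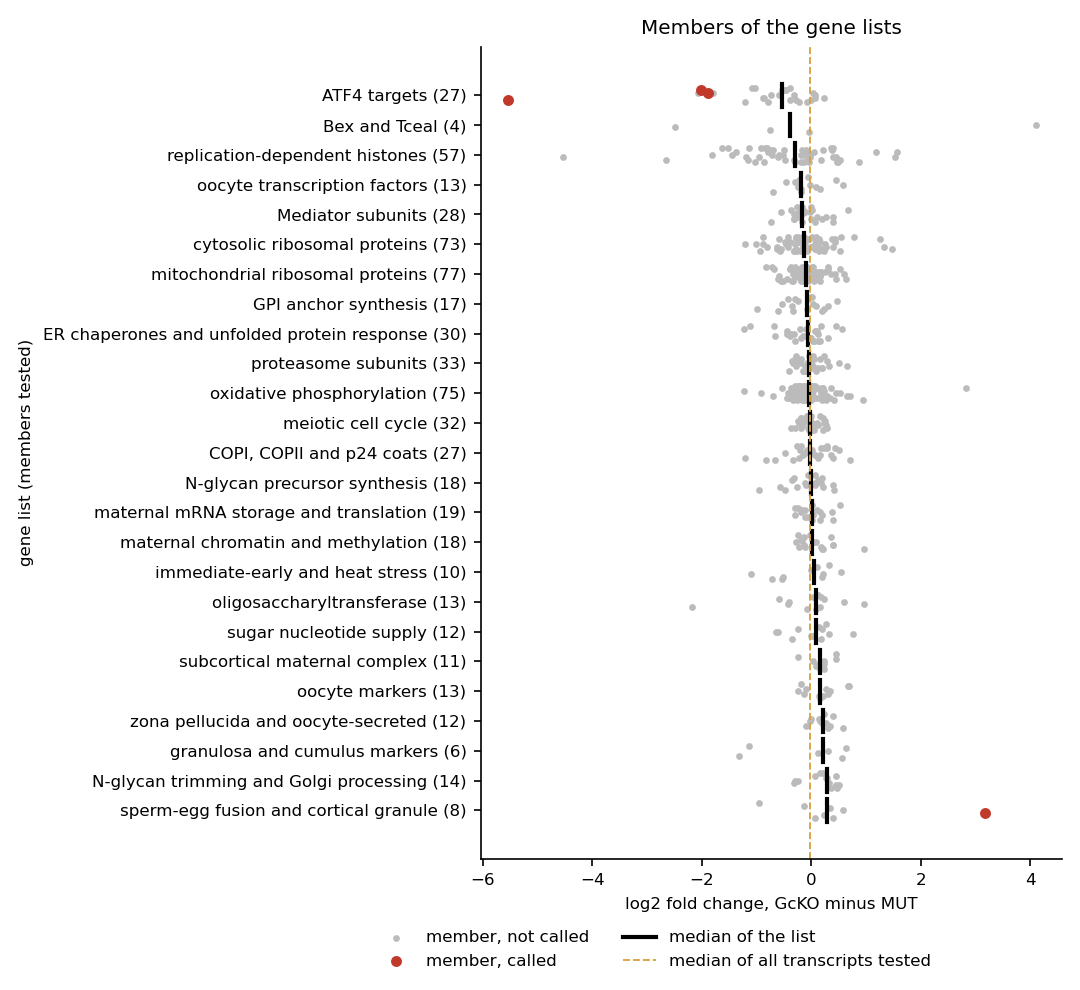
Log2 fold changes (GcKO minus MUT) of the tested members of each gene list, with the number tested in parentheses. Grey points are uncalled and red points called members, black bars are list medians and the dashed line is the median of all transcripts. Lists with at least 4 tested members are shown, and the ATF4 targets have the lowest median among them, at -0.53.

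Some large differences outside the called set were in genes with uneven values. Tceal8, an X-linked transcription elongation factor-like gene, was at 87.6, 92.2 and 140 FPKM in GcKO and 8.34, 2.69 and 5.69 FPKM in MUT (log2 fold change 4.10, standard error 0.84, limma adjusted p = 0.0743). Its groups were far apart, but WT ranged from 0 to 18.1 FPKM and AmcKO from 13.4 to 81.0 FPKM, and this spread entered the shared error. With only the 6 GcKO and MUT libraries in the fit it was called (limma adjusted p = 0.000464). Hist1h4j, one of many H4 genes of near-identical sequence, was at 0 in GcKO and at 24.6, 28.3 and 15.3 FPKM in MUT, while WT replicate 5 reached 30.1 FPKM and the other WT libraries 0 (limma adjusted p = 0.0780), and was likewise called in the fit of 6 libraries (limma adjusted p = 0.000145). Among 57 replication-dependent histone genes, none was called in the fit of 12, 7 were lower and none higher at an unadjusted p under 0.05 (3.88% of all transcripts were lower), and the median was -0.29. Of the 57, 8 reached 1 FPKM in MUT alone, and over the 47 that did so in both groups 4 were lower and the median was -0.16. Hist1h2bc, the most abundant of them, stood at 0.06 with overlap. The 4 tested Bex and Tceal genes held no call and had a median of -0.39. Bex2 reached 1 FPKM in MUT alone, and over the 3 that did so in both groups the median was -0.03. The sum over the list, mostly Tceal8 in GcKO and Bex4 in MUT, was 91.2, 92.2 and 148 FPKM in GcKO and 40.6, 11.8 and 24.6 FPKM in MUT (exact permutation p = 0.1).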

How the data were processed

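The deposited table listed FPKM values for 24255 genes in 12 libraries, which the authors made with TopHat2 2.0.13 (mm10) and Cufflinks 2.2.1 from paired 150 nt reads of RNA amplified by Smart-seq2. The sources name different library kits, and use of strand is not given in them. Its 18 columns of the authors' own comparisons (fold changes, p-values and q-values) were not used. FPKM values hold no counts, so depth is known only in relative terms. Values were tested as log2(FPKM + 1), a scale that understates changes of low genes, with limma 3.58.1 (R 4.3.3; lmFit and eBayes with trend) on all 12 libraries, with 8 residual degrees of freedom, and Benjamini-Hochberg adjustment over 10371 genes. Summed levels were compared by two-sided exact permutation (Python 3.11.15), in which 3 against 3 cannot go below p = 0.1.

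The comparison, its members and the 29 gene lists were chosen with earlier results of these data known. Named were all called transcripts, the most abundant member of each list and its largest difference without overlap, a short list of genes of the study's interest and the 10 most abundant transcripts. Other list members were named after their values were seen, and the AmcKO against WT difference and the WT placement with equal sums were added after seeing the data. Coordinates are those of GENCODE M21 and promoters those of RefSeq (GRCm38.p6). Alternatives changed the pseudocount, filter, scaling, variance model, threshold and libraries.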

Additional observations from a re-analysis of the deposited data

How the results depend on the processing

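Median-of-ratios scaling kept all 23 calls. Quantile normalization called 60 transcripts (32 lower and 28 higher in GcKO), an equal sum per library 76 (36 and 40) and sample quality weights 104 (55 and 49). A threshold of 0.01 left 6 (4 and 2). Leaving out 1 library gave 10 to 31 calls, 7 to 20 of them lower and 3 to 14 higher, with 10 without GcKO replicate 3 and 13 without MUT replicate 1. Same-numbered GcKO and MUT libraries had correlated deviations of -0.02, 0.04 and -0.04, and differently numbered ones of -0.06 to 0.07. This is a description without a test, so whether the replicate numbers pair the libraries is not settled. The replicate block called 9 (6 and 3) with 12 libraries and 25 with 6, sharing 8 and 10 of the 23. The fit of the 6 libraries without it called 26, sharing 14, and that with no variance trend 22, sharing 13. Fgf21, Gm19299, Gm7271, Myo10, Spesp1 and Xlr3c were called under every alternative that gave them a value. Sc5d, Rwdd2a and Cmpk1 each lost the call in 16 of 26. No direction reversed. The number of transcripts with an interval within 2-fold was 3412 with a pseudocount of 0.1, 9762 with no filter and 3634 with a mean of at least 5 FPKM, the last 2 with more or fewer genes tested. The median of the ATF4 targets was -0.89 with the pseudocount of 0.1 and -0.86 with a mean of at least 5 FPKM. For the other changes the cause was not tested. The unknown counts limit low transcripts most.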

Other observations

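Apart from the called transcripts, some genes were listed at 0 in all libraries of one group and at 1 FPKM or more in all of the other. There were 9 such genes in GcKO and 11 in MUT, of which Spesp1 and Nupr1 alone were called by limma. Ccl1, a chemokine, was at 5.42, 2.62 and 8.76 FPKM in GcKO and was listed at 0 in MUT and WT, with AmcKO replicate 4 at 4.40 FPKM (limma adjusted p = 0.0826). Hamp, the iron hormone hepcidin, was at 4.91, 24.3 and 8.14 FPKM in GcKO and at 0 in MUT, and was present in 2 of 3 WT and 3 of 3 AmcKO libraries (limma adjusted p = 0.245). Myl4, a myosin light chain of atrial and embryonic muscle, was at 1.17, 1.10 and 1.32 FPKM in MUT and at 0 in the other 9 libraries (limma adjusted p = 0.0746). Ifitm2, an interferon-induced membrane protein, was at 14.3, 3.94 and 2.33 FPKM in MUT, at 0 in GcKO and at up to 4.36 FPKM in WT (limma adjusted p = 0.213). Since a listed 0 can be a failed estimate, no fold is given here, and fitted folds of such genes depend on the pseudocount.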
